A study of Mus musculus with 6 samples.

Results

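Prolyl and lysyl hydroxylases were followed on 6 arrays of 3T3-L1 cells, mouse fibroblasts that form fat cells when induced. The arrays came from 3 untreated control cultures and 3 cultures treated with resveratrol, a plant polyphenol. The genes were taken by name from 3 enzyme families, P4ha1, P4ha2 and P4ha3 (collagen prolyl 4-hydroxylases), Plod1, Plod2 and Plod3 (collagen lysyl hydroxylases), and Egln1, Egln2 and Egln3 (hydroxylases of the transcription factor HIF). All probe sets annotated to exactly 1 of these 9 genes were used, 14 of the 45101 on the array. Of these, 9 belong to the 6 collagen-modifying genes and 5 to the 3 oxygen-sensing genes. No probe set named one of the 9 together with another gene. The families were chosen by name with the difference in intensity between resveratrol and control already known on these arrays, where P4ha1 and Egln3 had stood out. Their differences are therefore given as a description, without p-values. The labels state no dose, duration or stage of differentiation, and they do not say whether the replicate cultures were grown on separate occasions.

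These enzymes belong to a large family of dioxygenases that use oxygen, iron and 2-oxoglutarate to put a hydroxyl group on their target. In the endoplasmic reticulum the P4ha subunits, each paired with protein disulfide isomerase, hydroxylate prolines of collagen and so make its triple helix stable, while the Plod enzymes hydroxylate lysines that later carry sugars and cross-links. The Egln enzymes, also called PHD proteins, hydroxylate HIF alpha subunits when oxygen is present, which marks them for the ubiquitin ligase that contains the von Hippel-Lindau protein. Several genes of both kinds are themselves textbook HIF targets, among them P4ha1, P4ha2, Plod2, Egln1 and Egln3.

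In treated cells, 6 of the 9 genes had at least 1 probe set with lower signal past the threshold of the fit over all probe sets, and they included both kinds of enzyme. In probe sets this was 9 of 13 tested, beside 4.23% of all 27022 tested probe sets as lower, and nothing is read from the count because the contrast was known. Egln3 and P4ha1 differed the most, with treated signals at 28.7% to 31.9% of control for the 2 probe sets of Egln3 and at 39.7% to 44.4% for those of P4ha1. P4ha2, Plod1, Plod2 and Egln1 were lower by smaller amounts. Plod3 and Egln2 were not lower, and P4ha3 was too dim to be tested.

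The windows around the transcript starts are shown because they hold the short core that HIF binds, for the pair of genes that differed the most (Egln3 and P4ha1) and for the pair that was not lower (Plod3 and Egln2). The windows come from RefSeq, build GRCm38.p6. Each runs 5′ to 3′ on the gene's strand from 250 bases before to 50 bases after an annotated start. Capitals mark ACGTG or GCGTG read on either strand, which can overlap each other and the E-box CACGTG. P4ha1 lies on the plus strand with its window at chr10:59323046-59323345, Egln3 on the minus strand at chr12:54203825-54204124, Plod3 on the plus strand at chr5:136986769-136987068, and the Egln2 start shown on the minus strand at chr7:27166753-27167052.
P4ha1: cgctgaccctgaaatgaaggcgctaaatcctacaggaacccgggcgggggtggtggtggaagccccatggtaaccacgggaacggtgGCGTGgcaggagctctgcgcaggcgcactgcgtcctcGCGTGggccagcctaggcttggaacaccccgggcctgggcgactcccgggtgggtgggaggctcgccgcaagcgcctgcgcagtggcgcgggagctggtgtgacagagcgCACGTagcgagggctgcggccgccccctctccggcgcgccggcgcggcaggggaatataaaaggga
Egln3: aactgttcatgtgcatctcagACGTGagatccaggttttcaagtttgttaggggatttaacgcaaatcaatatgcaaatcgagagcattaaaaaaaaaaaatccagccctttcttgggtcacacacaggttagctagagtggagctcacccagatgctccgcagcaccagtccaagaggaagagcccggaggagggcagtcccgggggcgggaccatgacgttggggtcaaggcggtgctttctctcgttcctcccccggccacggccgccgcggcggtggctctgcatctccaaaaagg
Plod3: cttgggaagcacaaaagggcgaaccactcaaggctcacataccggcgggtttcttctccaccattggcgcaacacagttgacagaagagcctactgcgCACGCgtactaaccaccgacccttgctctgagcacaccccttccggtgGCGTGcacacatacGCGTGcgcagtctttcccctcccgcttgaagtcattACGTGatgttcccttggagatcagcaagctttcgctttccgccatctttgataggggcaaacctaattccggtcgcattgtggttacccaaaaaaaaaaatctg
Egln2: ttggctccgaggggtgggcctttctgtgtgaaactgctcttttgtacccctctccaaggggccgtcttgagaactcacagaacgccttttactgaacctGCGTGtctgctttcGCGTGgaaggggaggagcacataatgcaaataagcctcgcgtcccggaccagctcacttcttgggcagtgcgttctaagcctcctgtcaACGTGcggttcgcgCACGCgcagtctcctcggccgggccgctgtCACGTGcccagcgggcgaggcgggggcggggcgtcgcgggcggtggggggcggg

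Among the genes shown, the number of matches did not follow the size of the difference. Egln3 held 1 match and P4ha1 held 3, whereas Plod3 held 4 and the Egln2 start shown held 6. In the latter, 2 of the matches are both strands of 1 CACGTG, the E-box that other factors also bind. The other annotated Egln2 start, with its window at chr7:27165679-27165978, held 1 match, as many as Egln3. Of the genes not shown, P4ha2 held 4 matches, and Egln1 and Plod1 held 2 each. Of the 8 genes that the promoter table holds, 7 had a match, the exception being P4ha3. In windows this was 8 of 9 (88.9%), and among 32851 windows of the same length 43.8% had at least 1. The GC content of the hydroxylase windows ran from 49.3% to 86.0%, with a median of 52.7% over all windows, and within that range 55.9% of windows had a match. The windows in that range had a median GC content of 59.0% and were not matched in GC to each hydroxylase window. Plod2 was not matched to a window. A match is only a run of letters here, and sites outside these windows were not searched. The map of matches sets them beside the differences of the brightest probe sets.

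**Figure D1:**
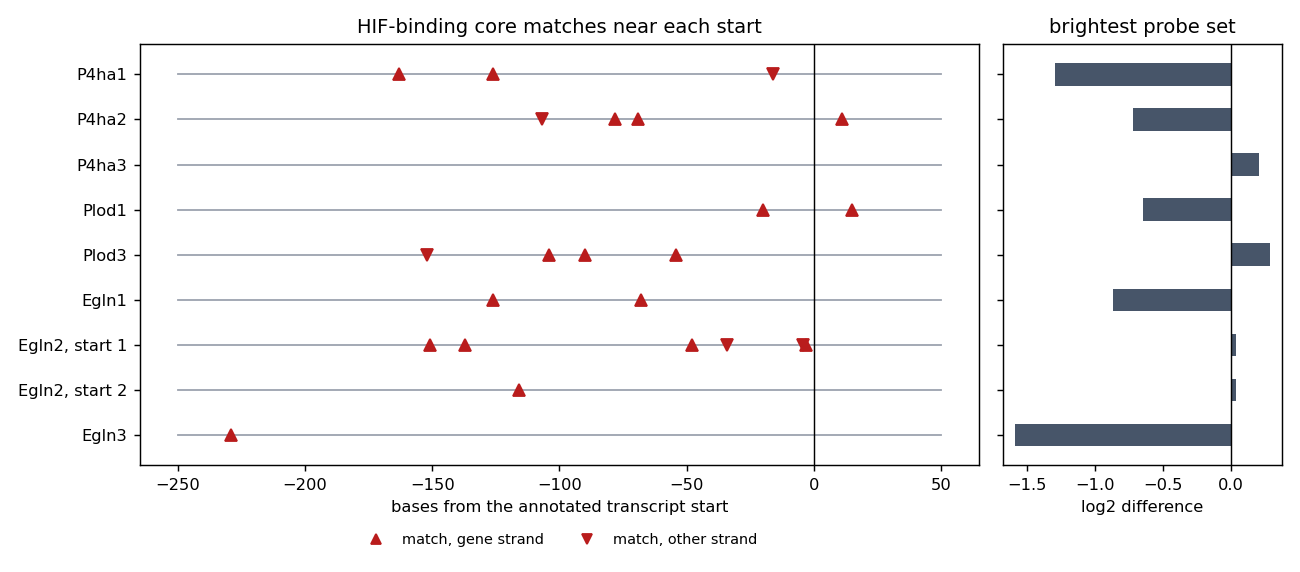
Positions of HIF-binding core matches from 250 bases before to 50 bases after each annotated transcript start (left, in bases), and the difference of resveratrol minus control of the gene's brightest probe set in log2(intensity + 16) (right). Egln3 has the lowest bar of these genes with 1 match. The first Egln2 start has 6 matches and the second has 1, beside a difference of 0.04.

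P4ha1 encodes the most widely expressed catalytic subunit of collagen prolyl 4-hydroxylase. Its brighter probe set, 1452094_at, read an intensity of 908, 906 and 881 on control arrays 1, 2 and 3, and of 370, 338 and 361 on the resveratrol arrays. Its second probe set, 1426519_at, read 541, 526 and 521 in control and 226, 247 and 231 in treated cells. Both sets of treated values lay far below all control values, and the arrays within a group differed by little. The means were 898 ± 14.8 (SD, n = 3) against 356 ± 16.3 for the first and 529 ± 10.02 against 235 ± 11.1 for the second, ratios of 2.52 and 2.25 of control over treated. On the scale of log2(intensity + 16), the differences of resveratrol minus control were -1.30 ± 0.07 (SE) and -1.12 ± 0.08.

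P4ha2, the gene of the second catalytic subunit, read 237, 307 and 342 in control and 168, 161 and 185 in treated cells. All treated values were below all control values, but control replicate 1 was the lowest of its group and the control spread was wide, at 18.0% of the mean. The log2 difference was -0.72 ± 0.12 (SE), with a 95% interval from -0.99 to -0.45. P4ha3, the third subunit, had very low signal, at 18.4 ± 3.20 (SD, n = 3) in control and 23.5 ± 2.49 in treated cells. Its groups overlapped, and its mean over the 6 arrays fell below the level filter. With no filter its log2 difference was 0.20, with a 95% interval from -0.19 to 0.59, so that neither a fall nor a rise can be read from it.

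The lysyl hydroxylases went different ways. Plod1, which acts on helical lysines of collagen, read 1345, 1359 and 1262 in control and 865, 837 and 817 in treated cells at its bright probe set, 1416289_at. The groups were widely separated, with 1322 ± 52.3 (SD, n = 3) against 840 ± 24.2, and the log2 difference was -0.64 ± 0.07 (SE). Its other probe set, 1445893_at, was dim, with 40.7, 37.5 and 15.0 in control and 33.9, 36.1 and 28.4 in treated cells. Control replicate 3 was the lowest value there, the groups overlapped, and the difference was 0.10 with a 95% interval from -0.41 to 0.61. Without control replicate 3 it was -0.18.

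Plod2, which hydroxylates the telopeptide lysines used for stable cross-links, had 2 probe sets that were both lower after treatment. The first, 1416686_at, read 130, 145 and 168 in control and 84.8, 77.3 and 96.0 in treated cells, and the second, 1416687_at, read 123, 166 and 155 against 62.8, 70.6 and 106. Neither had overlapping groups, but in the second, resveratrol replicate 3 came close to control replicate 1. The log2 differences were -0.68 ± 0.12 (SE) and -0.79 ± 0.17. The second was no longer past the threshold without control replicate 2 (-0.71), without resveratrol replicate 1 (-0.66) or without resveratrol replicate 2 (-0.73), nor without a level filter or without an intensity trend.

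Plod3, which can also add sugars to hydroxylysine, was the only one of the 9 genes whose treated values all lay above the control values. It read 948, 1081 and 1008 in control and 1327, 1188 and 1192 in treated cells, 1012 ± 66.4 (SD, n = 3) against 1236 ± 79.0. The log2 difference was 0.28 ± 0.08 (SE), with a 95% interval from 0.11 to 0.46. It did not pass the threshold of the fit, and passed in 3 of 14 alternatives, which were quantile normalization, the brightest 40% of probe sets, and a block for the 2 levels of spike signal described below.

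**Figure D2:**
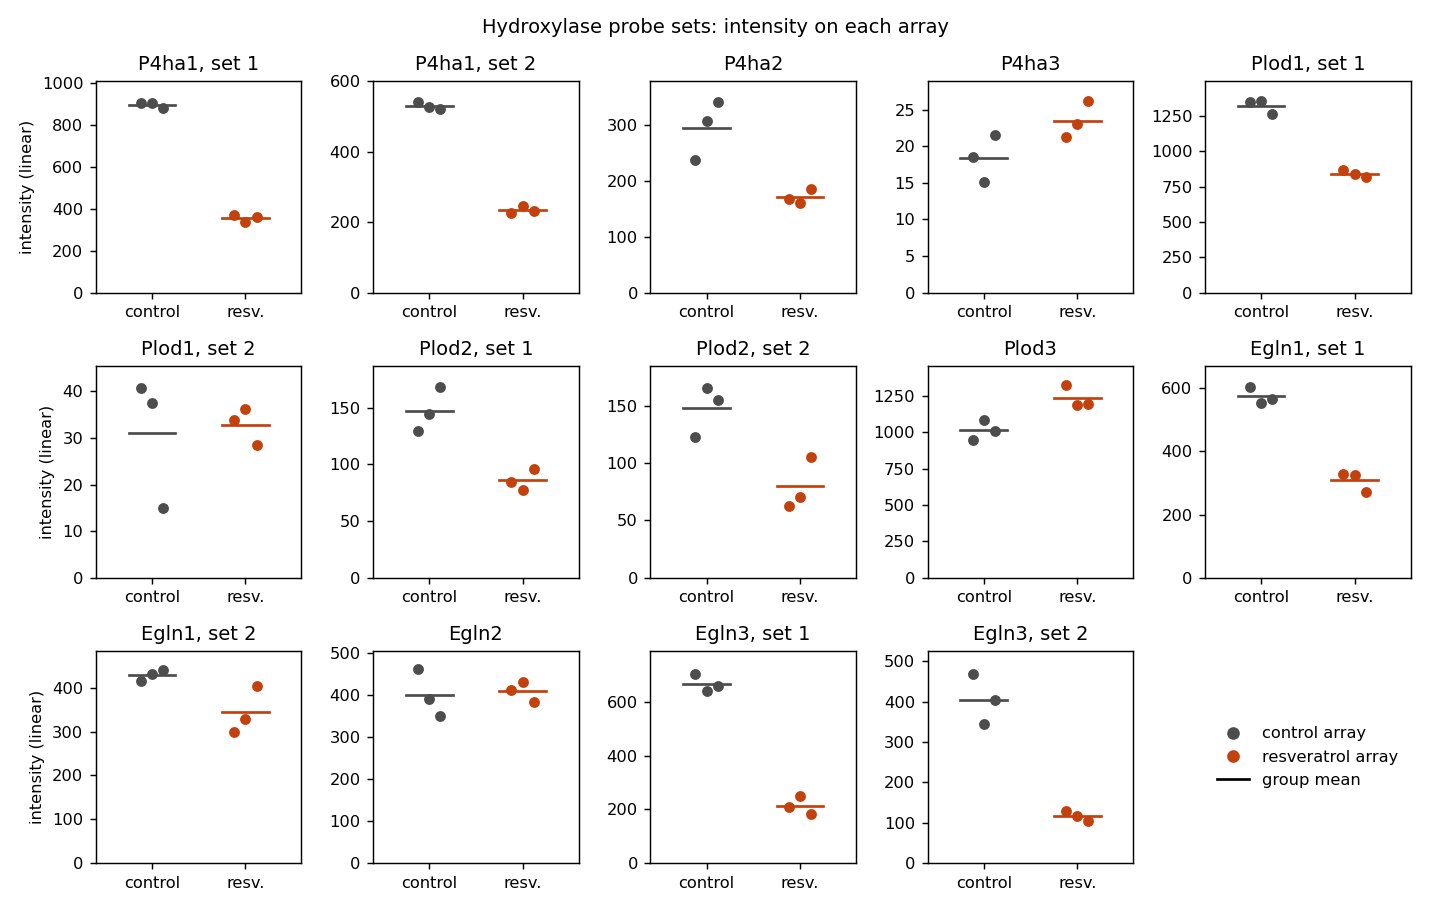
Intensity on a linear scale for each of the 14 hydroxylase probe sets, with 1 point per array (grey control, orange resveratrol, n = 3 each) and a line at the group mean; each panel has its own axis from 0, and where a gene has several probe sets, set 1 is the brighter. The groups lie fully apart in all panels but P4ha3, Plod1 set 2 and Egln2, and only Plod3 has all treated points above the control points. Of all tested probe sets, 26.4% had groups apart, and the genes were chosen with the contrast known.

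Among the oxygen sensors, Egln3 (PHD3) differed the most. Its brighter probe set, 1418649_at, read 706, 643 and 662 in control and 211, 248.5 and 184 in treated cells, and 1418648_at read 467, 343 and 403 against 129, 117 and 103. In both, the highest treated value was far below the lowest control value. The ratios of the means, control over treated, were 3.13 and 3.48, and the log2 differences were -1.59 ± 0.10 (SE) and -1.66 ± 0.12. Counted from the lowest difference, these were places 33 and 29 among 27022 probe sets tested, and the probe sets of P4ha1 took places 61 and 93.

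Egln1 (PHD2), the main hydroxylase of HIF under normal oxygen, had probe sets that differed in size. At 1423785_at it read 603, 553 and 566 in control and 327, 325 and 273 in treated cells, a log2 difference of -0.87 ± 0.09 (SE) with a 95% interval from -1.06 to -0.67. At 1451110_at it read 415, 433 and 441 against 301, 329 and 405, a log2 difference of -0.32 ± 0.10 with a 95% interval from -0.54 to -0.09. The groups lay apart in both. Resveratrol replicate 3 was the lowest treated array at the first probe set and the highest at the second, and without it the second had -0.43 and passed the threshold. With all arrays the second did not pass.

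Egln2 (PHD1) read 461, 390 and 349 in control and 412, 431 and 383 in treated cells, so its groups overlapped. The log2 difference was 0.04 ± 0.10 (SE), with a 95% interval from -0.19 to 0.26. Differences of the size seen for Egln1 at its first probe set or for Egln3 lie outside that interval. The sign of this small difference turned without control replicate 3 or without resveratrol replicate 2.

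Of the 13 hydroxylase probe sets tested, 9 were past the threshold of limma as lower and 0 as higher, beside 8.22% of all 27022 tested probe sets as changed, 4.23% as lower and 3.99% as higher. Since this comparison was known when the genes were proposed, nothing is read from that contrast. By kind, 6 of 8 tested collagen-modifying probe sets and 3 of 5 oxygen-sensing ones were lower. The groups did not overlap for 11 of the 13, beside 26.4% of all tested probe sets. The median log2 difference was -0.70 over the tested collagen-modifying probe sets and -0.87 over the oxygen-sensing ones, while that of all tested probe sets was 0.01. The ranges overlapped, from -1.30 to 0.28 and from -1.66 to 0.04, and whether the kinds differ was not tested. Each kind had both members that were much lower and members that were not.

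**Figure D3:**
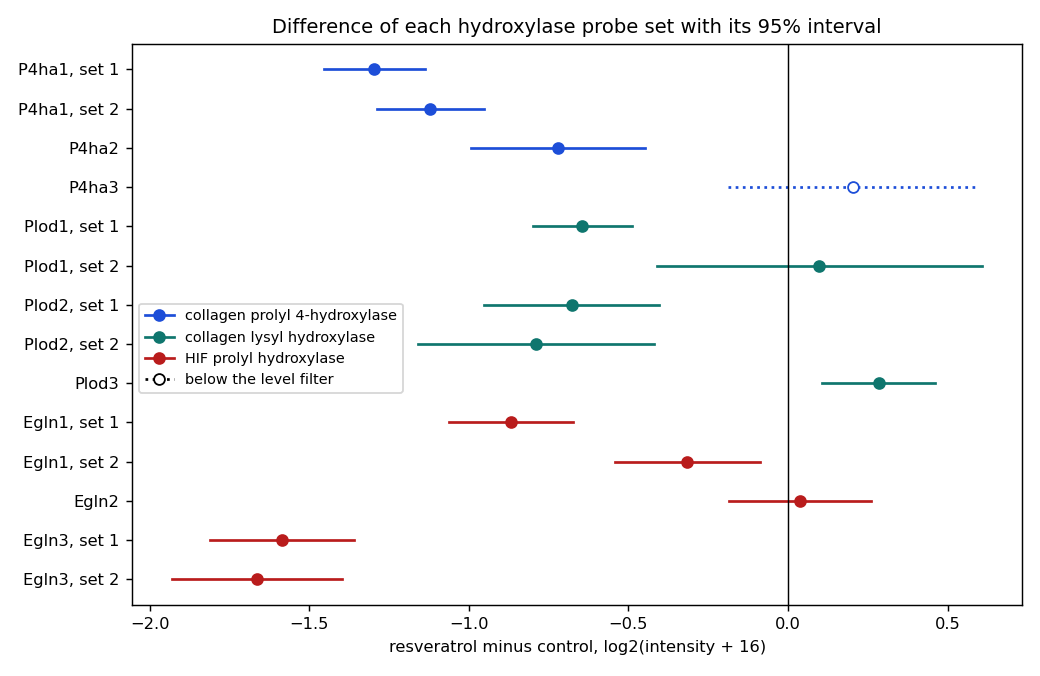
Difference of resveratrol minus control in log2(intensity + 16) for each hydroxylase probe set (points) with its 95% interval (lines), coloured by family; the open point and dotted line of P4ha3 come from the fit without a level filter. Egln3 and P4ha1 lie lowest, at -1.66 to -1.12, and the intervals of P4ha3, Plod1 set 2 and Egln2 include 0.

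The arrays were compared as scaled by the authors, with 1 factor per array. The hybridisation spikes were brighter on control replicates 1 and 2 and resveratrol replicate 1 than on the other 3 arrays, a split known from an earlier analysis. The median log2 difference of brighter minus dimmer arrays was 0.26 over the 353 tested probe sets with a mean intensity above 4000. It was -0.002 over the rest. Most of the brighter arrays were control and most of the dimmer ones resveratrol, so these medians also carry part of any treatment difference. The size of that part was not tested. The highest hydroxylase intensity was 1359. Within the brighter and the dimmer arrays, the first probe set of P4ha1 had -1.26 and -1.30, that of Egln3 -1.61 and -1.56, and that of Egln1 -0.79 and -0.89. The bright probe set of Plod1 had -0.63 and -0.60, P4ha2 -0.64 and -0.92, and Plod3 0.39 and 0.24. The sign differed between the parts for Egln2 (-0.04 and 0.21) and for the dim probe set of Plod1 (-0.14 and 0.63). Each part compares 2 arrays of one group with 1 of the other, so these values have no test.

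Markers of fat cells and of fibroblasts were both bright. The fat-cell markers Fabp4 and Adipoq read 11745 ± 2843 and 8620 ± 2073 (SD, n = 3) in control, and the fibroblast collagen Col1a2 read 8970 ± 1547, and none of these 3 passed the threshold. Of the 5 fat-cell markers tested, 2 fell, the glucose transporter gene Slc2a4 from 928 to 346 (log2 change -1.38, limma adjusted p = 1.6e-06) and the lipid droplet gene Cidec from 4193 to 2819 (-0.57, adjusted p = 0.00784). Of 7 fibroblast markers tested, the matrix proteoglycan genes Dcn and Lum fell by 0.50 and 0.59 (adjusted p = 0.0125 and 0.00617) and Thy1 rose by 0.40 (adjusted p = 0.00807). The summed signal of 6 fat-cell markers ran from 22369 to 32880 in control and from 20525 to 24933 in treated cells, and that of 7 fibroblast markers from 22589 to 26444 and from 19301 to 23136. The brightest of these markers, Fabp4, Adipoq and Col1a2, read above 4000, where arrays with brighter spikes read higher. The part of that split in the sums was not tested. The 7 macrophage markers summed to between 281 and 358 in control and to between 387 and 439 in treated cells, and the groups did not overlap there. Of those 7, 5 were tested, Cd14 alone passed the threshold, and none was at 0. Epithelial markers summed to between 108 and 341 in control and to between 207 and 218 in treated cells. Skeletal muscle markers summed to at most 234, chondrocyte or osteoblast markers to 156 and endothelial markers to 122. No marker of these other types passed the threshold. The part of shifts in marker signal in the hydroxylase differences was not tested. In bulk RNA, fewer cells of a type and less RNA per cell cannot be told apart.

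Of 17 tested genes for folding and modifying collagen, the partners of the collagen hydroxylases in the endoplasmic reticulum, 1 fell (5.88%) and 0 rose, beside 5.21% and 5.34% of all 12650 genes tested at their brightest probe set, so the count is near the background. The groups did not overlap for 8 of the 17, beside 30.2% of all genes. With quantile normalization 2 fell and 1 rose, and without an intensity trend 0 did either. P4hb, the protein disulfide isomerase that completes the prolyl 4-hydroxylase, read 5842, 5981 and 4848 in control and 6147, 5221 and 5300 in treated cells. Its groups overlapped, with a log2 difference of 0.002 and a 95% interval from -0.23 to 0.24. Serpinh1, the collagen chaperone HSP47, had 0.09 (limma adjusted p = 0.632). The prolyl 3-hydroxylase genes P3h1, P3h2 and P3h3 had 0.23, 0.36 and 0.37, and none passed (limma adjusted p = 0.133, 0.4 and 0.0723). These 3 were named after their values were seen. Mia3, which loads collagen into transport carriers, fell from 549 ± 29.9 (SD, n = 3) to 415 ± 4.21, a log2 change of -0.39 ± 0.07 (SE) with limma adjusted p = 0.00899. Of its 4 tested probe sets, 2 passed, with differences from -0.48 to -0.07. The call of the brightest was lost without an intensity trend.

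Collagen chains, the substrates, fell in part. Of 18 chains, 3 fell (16.7%) and 0 rose, beside 5.21% and 5.34% of all tested genes. The median was -0.17 against 0.02 for all tested genes. Col18a1 fell from 645 ± 68.9 (SD, n = 3) to 440 ± 14.7 (-0.53 ± 0.09, limma adjusted p = 0.00421). Col15a1 and Col5a3 changed by -0.37 and -0.32 (limma adjusted p = 0.0254 and 0.0371). Their calls were the less firm, past the threshold in 8 and 4 of 14 alternatives, and 1 or 2 of the 18 chains fell with any 1 array left out, and 1 without a level filter or an intensity trend. Col1a1, the main chain of type I collagen, had -0.32 (adjusted p = 0.0749) and Col3a1 -0.29 (adjusted p = 0.205) at their brightest probe sets. The other probe set of Col3a1 was at -0.58 and passed. The brightest passed without control replicate 3, at -0.42, but had -0.13 with quantile normalization and -0.19 with the spike-signal block. Control replicate 3 was the control array with dimmer spikes. Col1a1 moved less, with -0.34 without control replicate 3, -0.27 with quantile normalization and -0.29 with the spike-signal block. Both genes are bright, with lowest values of 3132 for Col1a1 and 6707 for Col3a1. The part of the spike split in their differences was not tested.

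Of 7 tested enzymes that trim and cross-link collagen, 1 rose (14.3%) and 0 fell, beside 5.34% and 5.21% of all tested genes. That share rests on 1 gene. Loxl1, a lysyl oxidase that acts on lysines of the matrix, rose from 1766 ± 56.2 (SD, n = 3) to 2352 ± 100 (0.41 ± 0.07, limma adjusted p = 0.00672), and its second probe set also passed. Its call was lost without an intensity trend, which left 0 of the 7 past the threshold, and with quantile normalization or the spike-signal block 2 rose. Lox, the best-known lysyl oxidase, had -0.13 (adjusted p = 0.549), and its probe sets ran from -0.13 to 0.03.

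On the side of oxygen sensing, Hif1a and Epas1 did not pass at their brightest probe sets. Hif1a read 783, 804 and 870 in control and 799, 783 and 877 in treated cells, so its groups overlapped almost completely. Its log2 difference was 0.0006 ± 0.08 (SE), with a 95% interval from -0.17 to 0.17. Epas1, which encodes HIF-2 alpha, had -0.09 (limma adjusted p = 0.634) at its brightest probe set, and its other probe set was at -0.35 and passed. Hif1an, the asparagine hydroxylase of HIF, had 0.14 (adjusted p = 0.582) and P4htm, a membrane-bound prolyl hydroxylase, 0.21 (adjusted p = 0.586), from a dim 22.4 ± 5.13 (SD, n = 3) in control to 28.2 ± 4.31. As background, HIF alpha is mainly regulated as a protein, which arrays do not measure.

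Of 17 tested HIF subunits and partners, 1 fell (5.88%) and 2 rose (11.8%), beside 5.21% and 5.34% of all tested genes. Counts this small are not read as a shift of the list. Vhl, the subunit that recognises hydroxylated HIF, fell from 632 ± 25.01 (SD, n = 3) to 493 ± 17.3 (-0.35 ± 0.07, limma adjusted p = 0.0142), and both its probe sets passed. Its call was lost without control replicate 2 (-0.35), resveratrol replicate 1 (-0.35) or resveratrol replicate 2 (-0.32), each with nearly the same difference, and without an intensity trend. Cited2, which competes with HIF for its coactivator, rose from 802 ± 8.77 to 1030 ± 16.9 (0.35 ± 0.07, adjusted p = 0.00878), but lost its call without an intensity trend, and its second probe set had 0.19 and did not pass. The second rise was that of Rbx1, the ring finger subunit of the Vhl ligase, at 14.3 ± 11.4 in control and 49.5 ± 5.71 in treated cells. Its control mean lies under the lowest mean of any tested probe set (21.0), so that it passed the level filter only through the treated arrays, and nothing is read from its call. The log2 difference of 1.17 (adjusted p = 0.014) was 0.54 with an offset of 64 and 1.96 with an offset of 1, and the call was lost without resveratrol replicate 1 (1.11) or without a level filter.

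HIF target genes outside the hydroxylase families were lower in large number. Of 24 tested, 17 fell (70.8%) and 1 rose (4.17%), beside 5.21% and 5.34% of all tested genes. The median log2 difference was -0.60, and with any 1 array left out between 14 and 18 of the 24 fell. The list was drawn up with earlier results of these arrays known and is no independent evidence of a direction. Pdk1, the kinase that turns off pyruvate dehydrogenase, read 969, 1014 and 1304 in control and 205, 285 and 223 in treated cells (-2.13 ± 0.13, limma adjusted p = 6.99e-06). Ero1a, the oxidase that renews protein disulfide isomerase, read 3454, 3724 and 3208 against 1085, 1037 and 1021 (-1.71 ± 0.08, adjusted p = 1.18e-06). Neither had overlapping groups. Ak4, Fam162a and Bnip3 changed by -1.97, -1.38 and -1.32, although the second probe set of Fam162a had -0.27 and did not pass. Vegfa, the vascular growth factor, had -0.39 (adjusted p = 0.0531), with its other probe set past the threshold at -0.60. It passed in 5 of 14 alternatives, among them without control replicate 1 (-0.52). Slc2a1, the glucose transporter GLUT1, had -0.03 (adjusted p = 0.882), Adm had 0.40 (adjusted p = 0.0802), and Pfkfb3, a kinase that speeds glycolysis, rose by 0.47 (adjusted p = 0.00323). These last 3 were named after their values were seen.

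**Figure D4:**
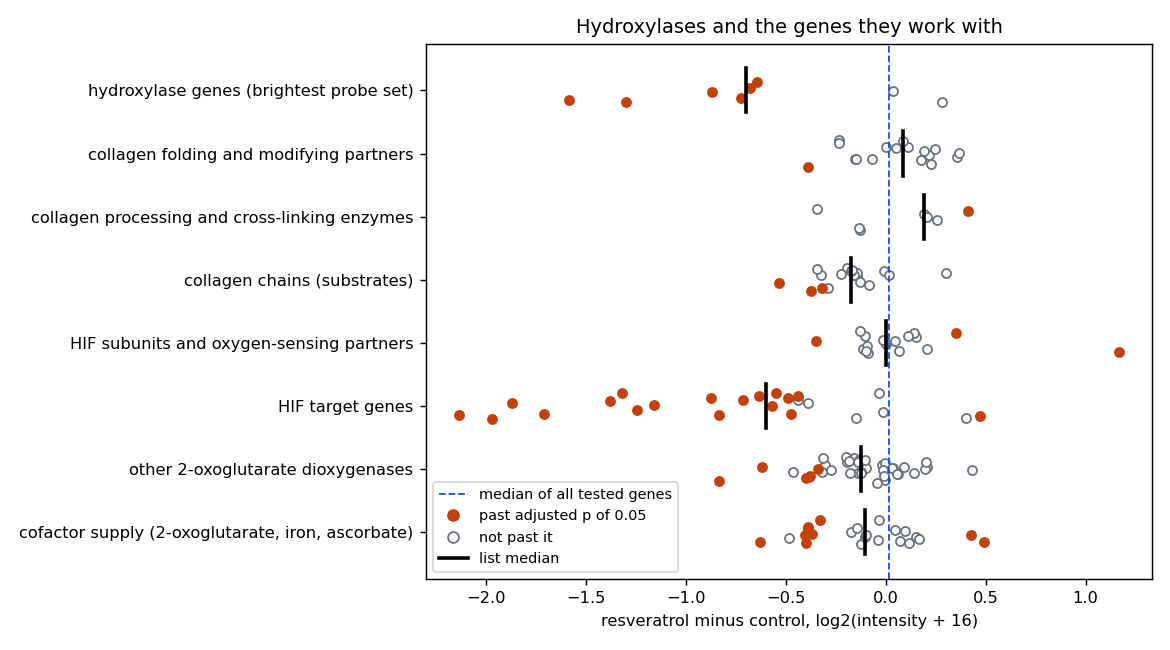
Difference of resveratrol minus control in log2(intensity + 16) for the tested hydroxylase genes at their brightest probe set and for 7 lists of genes they work with; filled points are past a limma adjusted p of 0.05, bars are list medians and the dashed line is the median of all 12650 genes. The HIF targets have a median of -0.60, while the HIF subunits and partners, at 0.0006, lie near the dashed line.

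Other enzymes that use oxygen, iron and 2-oxoglutarate were mostly past no threshold. Of 40 tested, 6 fell (15.0%) and 0 rose, beside 5.21% and 5.34% of all tested genes, with a median of -0.12. The deepest fall was that of Kdm3a, a histone demethylase and HIF target, from 686 ± 59.3 (SD, n = 3) to 377 ± 10.8 (-0.84 ± 0.08, limma adjusted p = 0.000152). Kdm4b, a further histone demethylase, changed by -0.62 (adjusted p = 0.00784) and the RNA demethylase Alkbh5 by -0.38 (adjusted p = 0.0117), whose call was lost without control replicate 2 (-0.35) or an intensity trend. Kdm7a, at -0.38 (adjusted p = 0.025), passed in 7 of 14 alternatives. Of its 3 tested probe sets, 1 passed, with differences from -0.38 to -0.20. Without control replicate 2 or without an intensity trend there were 2 falls, and without control replicate 1, resveratrol replicate 1 or resveratrol replicate 2 there were 3.

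Among 23 tested genes that supply 2-oxoglutarate, iron or ascorbate, 7 fell (30.4%) and 2 rose (8.7%). Of all tested genes, 5.21% fell and 5.34% rose. Tfrc, the transferrin receptor that brings in iron, fell from 1351 ± 78.3 (SD, n = 3) to 870 ± 55.9 (-0.63 ± 0.08, limma adjusted p = 0.000812). Ogdh, which consumes 2-oxoglutarate, changed by -0.39 (adjusted p = 0.0103). Its call was lost without control replicate 2 (-0.35), resveratrol replicate 1 (-0.37) or an intensity trend. Glud1 and Got2, which make 2-oxoglutarate from glutamate, rose by 0.49 and 0.43 (adjusted p = 0.0103 and 0.00894), and Glud1 did not pass without resveratrol replicate 1 (0.45), and neither passed without an intensity trend. Other genes that make 2-oxoglutarate went the other way. The isocitrate dehydrogenase genes Idh1, Idh3a, Idh3b and Idh3g changed by -0.39, -0.40, -0.37 and -0.40 (limma adjusted p = 0.0432, 0.0312, 0.0175 and 0.0105). Idh2 had 0.05 (adjusted p = 0.788). These Idh genes were named after their values were seen. The ascorbate transporter gene Slc23a2, named after its value was seen, had 0.07 (adjusted p = 0.727). The number of falls was 2 without control replicate 2 or without resveratrol replicate 1, 3 without resveratrol replicate 2, and 4 without control replicate 1 or resveratrol replicate 3. It was 4 with no level filter, and without an intensity trend 1 fell and 0 rose.

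The pattern over the 6 arrays was compared by Pearson's r of the log2 values at the brightest probe sets, as a description that mainly follows the distance between the 2 groups. The 5 genes most like P4ha1 were Fosl1, Slc2a4, Prelid2, Pnpla3 and Lonp1, with r from 0.997 to 0.999. Those most like Egln3 were Gchfr, Higd1a, Wfdc21, Sqle and Apoc4, with r from 0.998 to 0.999. Among the hydroxylases, Plod1, Egln3 and Egln1 had r of 0.99, 0.98 and 0.98 with P4ha1, P4ha2 and Plod2 had 0.91 and 0.94, Egln2 had -0.15 and Plod3 had -0.87.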

How the data were processed

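Gene expression was measured on 6 one-colour arrays of biotin-labelled RNA, 3 per group. Each deposited value is a linear intensity of 1 probe set. The software that made it is not stated in the labels. On control replicate 1 only 0.79% of values had no more than 1 decimal, beside 100% on every other array. The cause was not tested. With the top and bottom 2% left out, every array had a mean of 150, so the authors scaled each array by 1 factor, as read from the values. Genes were named through the platform annotation, where 34945 probe sets name 1 gene, 932 several and 9160 none. Symbols were checked by Entrez number against RefSeq GRCm38.p6. The number of arrays limits the precision.

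Values were turned into log2(intensity + 16), a scale that understates changes of dim probe sets. After leaving out 64 control probe sets, the 60% with the highest mean over the arrays (27022) were fitted with limma 3.58.1 in R 4.3.3 (lmFit, eBayes with trend), 2-sided, at a threshold of 0.05 after Benjamini-Hochberg adjustment. Each p-value reflects only the spread among these cultures. On simulated data with 27022 probe sets the fit recovered 12 of 67 changes of 0.5, 44 of 67 of 1 and 62 of 66 of 2 on the log2 scale. Only these were changed there, whereas 2220 were called on the arrays. The adjusted threshold was therefore stricter in the simulation, and its rates do not carry over to the arrays.

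The hydroxylases, gene lists, named genes and alternatives were chosen with earlier results of these data known. Named partners are 13 fixed genes and, of each list, up to 4 called genes with the smallest p, each at its brightest tested probe set. Further partners are marked where they were named after their values were seen. Figures were drawn in matplotlib 3.10.9 under Python 3.11.15.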

Additional observations from a re-analysis of the deposited data

How the results depend on the processing

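Of the 9 hydroxylase probe sets called, 8 stayed past the threshold under all 14 alternatives, and the exception was the second probe set of Plod2. The genes were chosen with the contrast known on these same arrays, so nothing is read from how many calls stayed. The number called was 8 to 10 with any 1 array left out. Over all probe sets 2220 were called, 1396 with no level filter, 848 without an intensity trend and 1115 to 1949 with any 1 array left out. The genes called over the 7 partner lists numbered 19 without an intensity trend and 25 to 39 with any 1 array left out. Signs turned for small differences: with 1 array left out Egln2 had values from -0.052 to 0.14, the dim probe set of Plod1 from -0.18 to 0.26, Hif1a from -0.048 to 0.044 and P4hb from -0.093 to 0.058. Hif1a had -0.010 with quantile normalization and -0.030 with the spike-signal block. The cause was not tested. No pairing by replicate number was seen, with correlations of -0.06, -0.01 and 0.09 between the deviations of same-numbered arrays. Those of differently numbered arrays ran from -0.08 to 0.09. This cannot show whether same-numbered cultures were handled together. With the replicate block, 1880 probe sets were called over all and 9 among the hydroxylases. Dim signal limits P4ha3 and the second probe set of Plod1.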
